A study of Mus musculus with 16 samples.

Results

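The question here was which transcripts of the mouse heart respond to loss of both AKT kinases by more or less than the changes after loss of either kinase alone add up to. For each gene the measure was the departure from additivity, the log2 level in double knockout hearts minus that in AKT1 knockout hearts minus that in AKT2 knockout hearts plus that in control hearts. A departure of 0 means that the double knockout change equals the sum of the single changes. All 16 arrays and all 13725 genes that passed the filter on dim probes entered, so the members are all 13725 of 13725 tested genes. The control mice were heterozygous for MHC-MerCreMer, a Cre recombinase driven by the alpha myosin heavy chain promoter of cardiomyocytes and switched on by hydroxytamoxifen. The AKT1 KO mice carried this transgene and homozygous AKT1 flox/flox alleles, the AKT2 KO mice carried it with homozygous AKT2 flox/flox alleles, and the AKT1+AKT2 DKO mice carried it with both. Hydroxytamoxifen, 500 µg daily over 5 days, had been given to every group, the controls included, with collection 21 days after induction from male C57Bl/6 mice aged 3 months. Total RNA came from the heart apex of 4 mice per group, with 1 array per mouse, and p-values measure the spread between mice. The titles call all samples untreated, and the labels name no treatment beyond the induction. The promoter limits recombination to cardiomyocytes, so other cells of the apex keep both genes, and in such bulk RNA fewer cells of a type and less RNA per cell cannot be told apart.

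AKT1 and AKT2 are closely related serine/threonine kinases that insulin and growth factor receptors activate through phosphatidylinositol 3-kinase. They phosphorylate many of the same proteins, among them the FoxO transcription factors, which leave the nucleus when phosphorylated, and the inhibitors that hold back mTOR complex 1, which promotes translation. In the heart AKT1 is best known for physiological growth and AKT2 for insulin-stimulated glucose uptake, so that either isoform may cover for the other in some functions and not in others.

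Each value below called a level is the log2 intensity of a gene's brightest probe minus the 75th percentile of its array, so 0 marks that percentile, and levels of different genes are not compared. A gene was called in a comparison when its limma p-value, adjusted by the Benjamini-Hochberg method over all 13725 genes, was under 0.05. Genes varied least among the 4 control hearts and most among the 4 DKO hearts, with a median SD of 0.090 against 0.248 log2 units (0.162 for AKT1 KO and 0.114 for AKT2 KO). DKO replicate 3 lay apart from the other DKO arrays on the first principal component (78.6 against 42.5 to 47.8), and AKT1 KO replicate 1 was the lowest array of its group in the levels of the ribosome list (6.28 against 6.52 to 6.59) and of most mitochondrial lists. Counts of fewer than 5 genes in a list often moved by over 1.5 times when 1 array was left out, and larger counts that did so are given with the array below. On both slides each group occupied its own array column, so group and column cannot be told apart.

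Loss of both kinases changed far more genes than loss of either one, and for most of the larger changes the single changes did not add up to it. Against control 109 genes (0.794%) were called in AKT1 KO hearts and 18 (0.131%) in AKT2 KO hearts, while 6257 (45.6%) were called in DKO hearts, 3354 higher and 2903 lower. The fit used 1 variance per gene over all 4 groups, so the wider spread of the DKO hearts entered the tests of the single changes too. With 1 variance weight per group, 5186 genes were called in DKO hearts. DKO hearts differed from AKT1 KO hearts in 6450 genes (47%) and from AKT2 KO hearts in 5780 genes (42.1%). The sum of both single changes was itself called in 27 genes (0.197%). The departure was called in 3566 genes (26%), above 0 in 2177 (15.9%) and below 0 in 1389 (10.1%), and at an unadjusted p under 0.05 in 5249. Over all genes the median departure was 0.05, the median sum of the single changes -0.05 and the median DKO change 0.02 on the log2 scale. All 4 DKO arrays lay above the 12 others in 2305 genes (16.8%) and below them in 1630 (11.9%).

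A gene was said to stand apart when the departure and all 3 differences of the DKO from the other groups were called with 1 sign, neither single change was called, and each was under 0.3 of the DKO change in size. This held for 2497 genes (18.2%), 1461 higher (10.6%) and 1036 lower (7.55%). A gene was said to follow the sum when its DKO change was called, at least 1 log2 unit in size, and the 95% interval of its departure lay between -0.5 and 0.5. Of the 1131 genes with a called DKO change of that size, 786 (69.5%) had a called departure, 1 followed the sum, and 344 could be placed in neither set. The median half-width of the interval was 0.66 in these 1131 genes, so that most could not have met the margin of 0.5 whatever their departure. In the 347 genes whose half-width was below 0.5, the departure was called in 339. All these genes, like those called in DKO hearts below, were chosen by their DKO change. That change is part of the departure, so the shares with a called departure are partly set by the choice. At any size of change, 740 (11.8%) of the 6257 genes called in DKO hearts had an interval within the margin, with 302 of the 3354 higher genes and 438 of the 2903 lower genes among them. Among higher genes the departure was called in 1924 (57.4%), and among lower genes in 1259 (43.4%). The plot of DKO change against the sum of single changes shows this as a cloud that is tall and narrow.

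**Figure D1:**
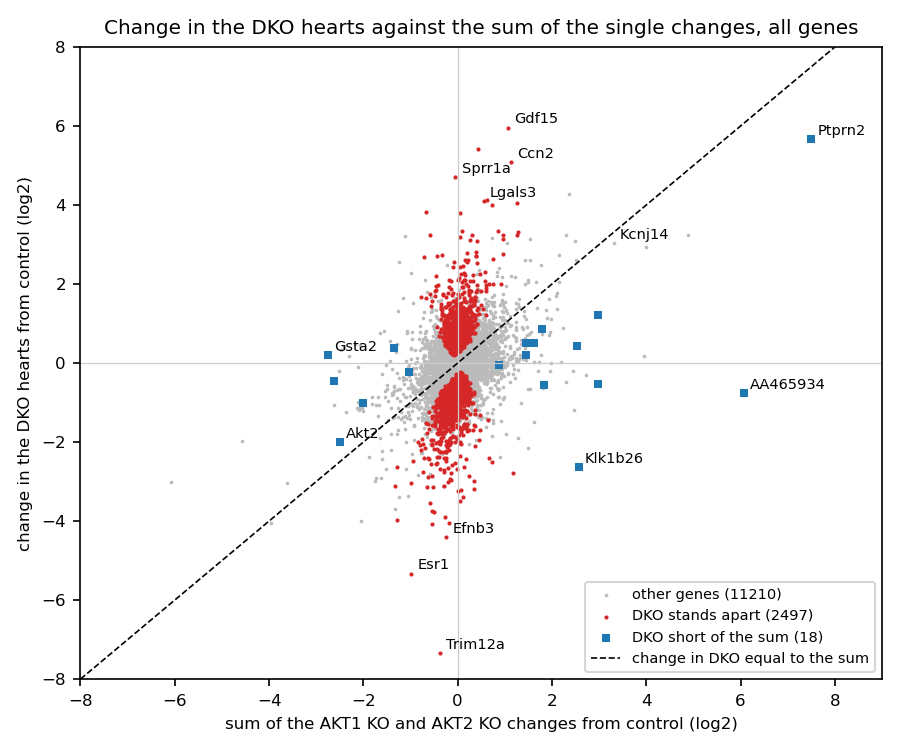
Each point is 1 of the 13725 tested genes, with the sum of the AKT1 KO and AKT2 KO changes against control on the horizontal axis and the DKO change against control on the vertical axis, both in log2 units, and the diagonal marks additivity. The 2497 genes that stand apart lie above or below the diagonal at sums smaller in size than their DKO change, and the 18 genes short of the sum lie to its sides.

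The targeted genes themselves were not symmetric in the 4 groups. Akt2 (chromosome 7) read 4.92, 4.90, 4.83 and 4.98 in control hearts and 4.51, 4.89, 4.84 and 4.87 in AKT1 KO hearts. It read 2.64, 2.43, 2.50 and 2.58 in AKT2 KO hearts and 2.84, 2.82, 3.04 and 2.92 in DKO hearts, so that each of the 4 DKO arrays lay above each AKT2 KO array. The departure of Akt2 was 0.50 (SE 0.126, adjusted p = 0.0101), which places it among the genes short of the sum. Its other kept probes gave departures of -0.08 (adjusted p over probes = 0.771) and 0.36 (0.0592). The brightest Akt1 probe (chromosome 12) read between 4.86 and 5.43 in all 16 hearts, with a departure of -0.15 (adjusted p = 0.484), and where it lies relative to the deleted exons is not known here.

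Among the largest departures above 0 were those of Gdf15, Ccn2 and Lgals3, which were measured in all groups, and of genes near or below background outside the DKO group. Gdf15, a stress-induced cytokine of the TGF-beta family, read -1.48, -1.49, -1.22 and -1.43 in control, -0.80, -0.40, -0.56 and -0.77 in AKT1 KO, -1.33, -0.27, -1.52 and -1.36 in AKT2 KO and 3.62, 4.09, 5.71 and 4.81 in DKO hearts. All 4 DKO hearts were far above the 12 others, and the departure was 4.90 (SE 0.505, adjusted p = 1.76e-05) beside a sum of single changes of 1.06. Ccn2, a matricellular growth factor, read 3.18 to 3.28 in control, 3.65 to 4.55 in AKT1 KO, 3.05 to 3.89 in AKT2 KO and 8.13 to 8.59 in DKO hearts. Its departure was 3.95 (SE 0.262, adjusted p = 4.4e-07), with single changes of 0.83 (adjusted p = 0.052) and 0.30. Lgals3, which encodes galectin-3, read -0.46 to -0.27 in control, -0.43 to -0.03 in AKT1 KO, -0.21 to 0.36 in AKT2 KO and 3.42 to 4.30 in DKO hearts, a departure of 3.55 (SE 0.247). For Ccn2 and Lgals3 too no DKO heart overlapped another group.

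Sprr1a, a small proline-rich protein of stressed cells, was not well above background on any control or AKT1 KO array and on 1 AKT2 KO array, and read -0.63, -0.13, 1.93 and -0.45 in DKO hearts. It was at least 17.6-fold higher in DKO than in control and at least 20.5-fold higher than in AKT1 KO hearts. Such bounds set the mean of the brighter group against the lowest signal well above background on the arrays of the dimmer one. With values below background raised to that signal on each array, an alternative chosen after seeing the data, the departure of Sprr1a was 4.46 and still called. Plcxd2, a phospholipase C-like gene, was well above background on no array outside the DKO group and was at least 7.25-fold higher there than in control, 8.54-fold than in AKT1 KO and 8.52-fold than in AKT2 KO hearts. Nrip3 behaved alike with bounds of 3.48, 4.09 and 4.08-fold. The olfactory receptor gene Olfr1500 was at least 2.9-fold higher in DKO than in control and at least 3.41-fold higher than in AKT1 KO hearts. Grip1, a glutamate receptor scaffold, and Tmem202 were below background on some arrays of every other group, and with such values raised their departures were 2.93 and 3.0, both called. The chemokine receptor gene Cxcr6 had a departure of 3.50 with or without that step. With DKO replicate 3 left out the departures of Gdf15 and Cxcr6 were 4.52 and 2.87, both still called. Sepsecs, which makes selenocysteinyl-tRNA, was below background on all control and AKT2 KO arrays and had a departure of 3.26 (2.94 with such values raised) that turned below 0 in 5 alternative settings, among them no filter on dim probes, where another probe can stand for the gene.

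Most of the largest departures below 0 were in genes far lower in DKO hearts than in any other group. Trim12a, a tripartite motif gene, read 1.20 to 1.36 in control, 1.11 to 1.59 in AKT1 KO and 0.18 to 1.52 in AKT2 KO hearts, and lay below background on all 4 DKO arrays. Control hearts were at least 42.2-fold, AKT1 KO at least 45-fold and AKT2 KO hearts at least 30.6-fold higher than DKO hearts. Esr1, the estrogen receptor alpha gene, whose hormone-binding domain is also part of MerCreMer, read 6.25, 6.41, 6.15 and 6.47 in control, 6.29, 6.12, 5.44 and 5.76 in AKT1 KO, 5.15, 5.94, 5.91 and 6.02 in AKT2 KO and 0.51, -0.24, 1.0 and 2.70 in DKO hearts. Its departure was -4.34 (SE 0.627, adjusted p = 0.000253), and whether its probe reads the endogenous gene or the transgene was not tested. Efnb3, an ephrin ligand, read 2.75 to 3.49 in the 12 other hearts and -1.83 to -0.49 in DKO hearts (departure -4.17, SE 0.339). Igsf1, an immunoglobulin superfamily gene, read 2.51 to 3.23 in the 12 other hearts and -1.63 to -0.25 in DKO hearts (departure -3.25). Adcy1, an adenylyl cyclase, had a departure of -3.94, and no DKO array overlapped another group. Ky, a muscle peptidase-like gene of the Z-disc, had a departure of -3.54. Crybb1 was at least 4.06-fold and Mrgprh at least 3.02-fold higher in control than in DKO hearts.

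**Figure D2:**
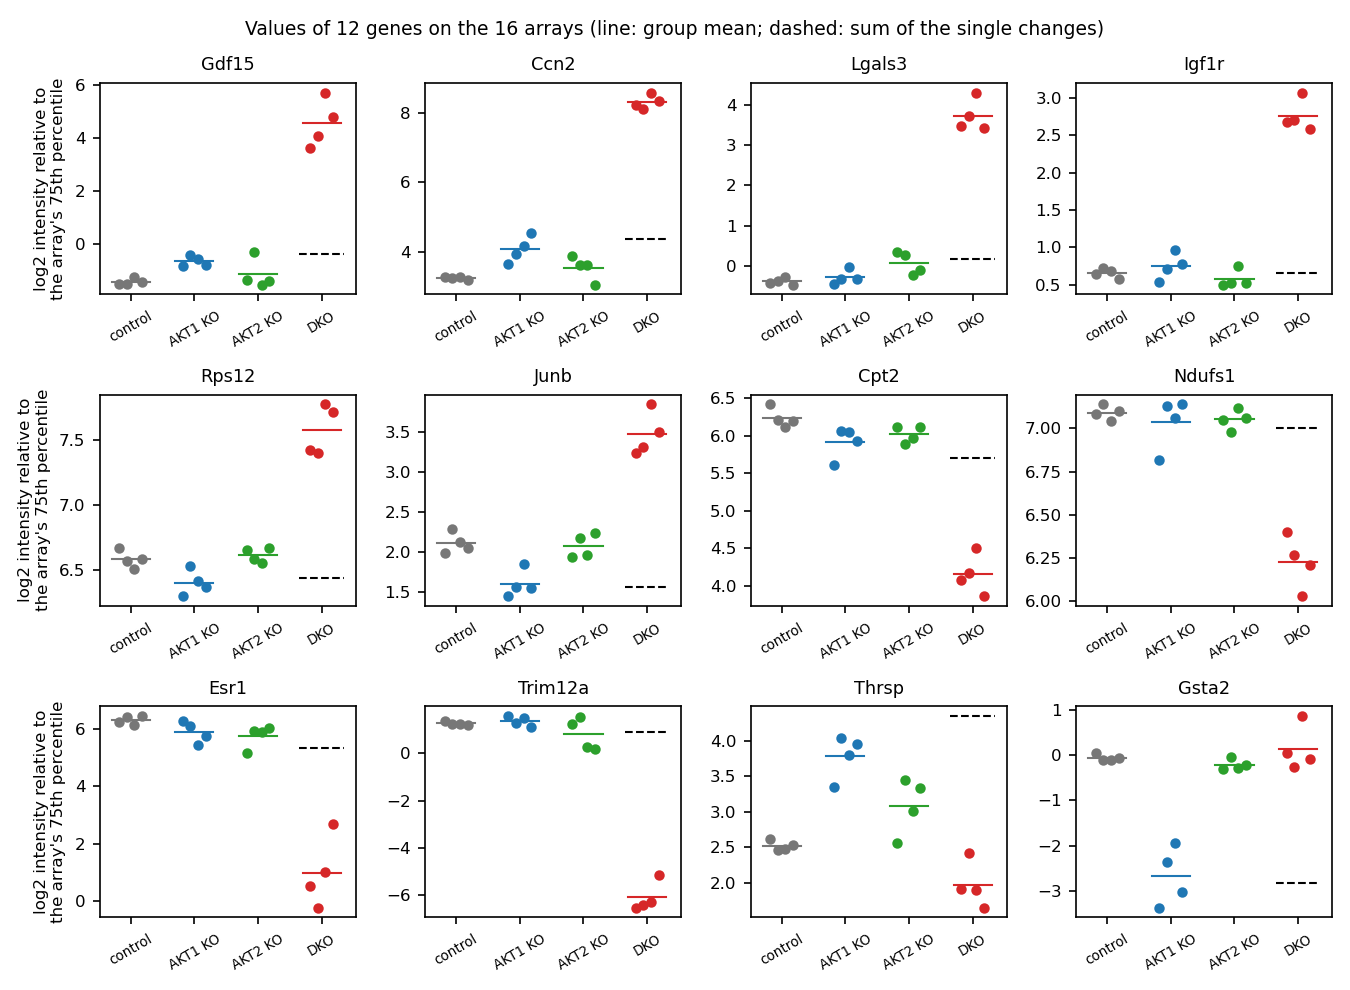
The level of single genes, in log2 units relative to the 75th percentile of the array, is plotted for each of the 16 hearts in the 4 groups, with solid lines at the group means and a dashed line where the sum of the single changes would put the DKO hearts. In genes that stand apart, such as Gdf15 and Ccn2, the 4 DKO points lie far from the dashed line and from the 12 others, and in Gsta2 the AKT1 KO points alone are low.

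Along the signalling pathway itself, changes went both ways. Of 36 tested genes of AKT and insulin signalling, 10 were called higher and 7 lower in DKO hearts, with a median DKO change of 0.05. The departure was called in 12 (33.3%, against 26% of all genes), above 0 in 10 and below 0 in 2, with a median of 0.20. The targeted gene Akt2 is itself counted among the lower genes and among the departures above 0. Igf1r, the IGF-1 receptor, read 0.58 to 0.72 in control, 0.54 to 0.97 in AKT1 KO, 0.50 to 0.75 in AKT2 KO and 2.58 to 3.07 in DKO hearts. Its departure was 2.09 (SE 0.157, adjusted p = 1.25e-06) and the sum of its single changes 0.01. Insr, the insulin receptor gene, had a departure of 0.93, and Pik3cb, a catalytic subunit of phosphatidylinositol 3-kinase, of 1.0. Eif4ebp1, a repressor of cap-dependent translation, had one of 1.51. All 4 stand apart.

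Of 29 tested FoxO factors and targets, 10 had a called departure above 0 and 1 below 0 (median 0.19, against 0.05 over all genes). The median was 0.08 without AKT1 KO replicate 1 and 0.30 without DKO replicate 3. Insr belongs to this list too. Gabarapl1, an autophagosome protein, read 5.58 to 5.96 in the 12 other hearts and 6.84 to 7.21 in DKO hearts, a departure of 1.34 (SE 0.138). Bnip3, a mitophagy receptor, had a departure of 1.39 and Fbxo30, a muscle ubiquitin ligase subunit, of 1.46. The mean level over the tested members of the list was 2.25 to 2.31 in control and 2.02 to 2.33 in AKT1 KO hearts. It was 2.19 to 2.35 in AKT2 KO and 2.51 to 2.60 in DKO hearts. Under quantile normalization the counts were the same and the median was 0.06. Of 33 autophagy and lysosome genes 11 had a called departure above 0 and 2 below 0, among them Gabarap (0.81), Atg13 (0.68) and the cargo receptor gene Sqstm1 (0.83).

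The fetal and stress programme, genes that the diseased heart re-expresses, had a median DKO change of 1.84, or 1.09 without DKO replicate 3, against a median sum of single changes of 0.26. Of its 27 tested members 17 were called higher and 4 lower in DKO hearts, and the departure was called above 0 in 9 and below 0 in none, or in 14 without DKO replicate 3. Its mean level was 1.94 to 2.18 in control, 2.05 to 2.40 in AKT1 KO, 2.22 to 2.41 in AKT2 KO and 3.35 to 4.19 in DKO hearts. Beside Ccn2, Lgals3 and Sprr1a it holds Rcan1, an inhibitor and target of calcineurin, which read 4.78 to 5.47 in the 12 other hearts and 6.87 to 7.32 in DKO hearts (departure 1.81, SE 0.192). Of 28 secreted stress factors 9 had a departure above 0 and 3 below 0. Nppb, which encodes brain natriuretic peptide, read 6.11 to 6.58 in control, 6.62 to 7.08 in AKT1 KO, 6.01 to 6.86 in AKT2 KO and 8.17 to 8.68 in DKO hearts. The Nppb departure was 1.49 (SE 0.24, adjusted p = 0.000572), beside an AKT1 KO change of 0.53 that was not called (adjusted p = 0.296). Sfrp1, a secreted Wnt antagonist, had a departure of 1.22, and Metrn, meteorin, one of -1.28.

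Immediate early and AP-1 factors, the transcription factors that growth and stress signals induce within minutes, had the largest median departure among the function lists, 1.19, with 22 of 30 called above 0 and none below 0. Of the 22, 11 stand apart, and 17 of the 30 were called higher in DKO hearts. The median sum of the single changes in this list was -0.26 and the median DKO change 0.82. Maff read -1.91 to -1.04 in the 12 other hearts and 0.59 to 1.90 in DKO hearts (departure 2.45, SE 0.309). Mafk had a departure of 1.55 and stands apart as Maff does. Junb read 1.98, 2.29, 2.12 and 2.04 in control, 1.44, 1.56, 1.84 and 1.54 in AKT1 KO, 1.93, 2.17, 1.96 and 2.23 in AKT2 KO and 3.24, 3.31, 3.85 and 3.50 in DKO hearts. The AKT1 KO arrays of Junb lay below all controls without a call (-0.51, adjusted p = 0.117) and its departure was 1.91 (SE 0.185). Egr1, a zinc finger factor, shows the other pattern. Its AKT1 KO change was -1.20 (adjusted p = 0.0468), its DKO change 0.56 was not called (adjusted p = 0.0905), and the departure was 1.99 (adjusted p = 0.00142). Within slide 1 the median departure of the list was 0.79 and within slide 2 it was 1.64.

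AP-1 dimers bind the letters TGANTCA. Among the promoters that RefSeq (build GRCm38.p6) gives for 10895 of the 13725 genes, taken as the 250 bases before the start site and searched on both strands, 4.54% held this motif. It was in 4.96% of 1715 promoters of genes with a called departure above 0 and in 4.15% of 1109 of genes below 0. Among genes that stand apart it was in 3.99% of 1152 promoters of higher genes and in 4.65% of 817 of lower genes, the reverse order. It was in 3 named genes with a departure below 0, Map2k6, Ndufa9 and Opa1, and in 4 with a departure above 0, whose promoters are printed because their products (a stress-induced envelope protein, a myofibril-associated repeat protein, a stress-linked selenoprotein and a matrix protease) span the groups described here. Capitals mark each match, and each line is on the strand of its gene.
Sprr1a, chr3:92485882-92486131, minus strand: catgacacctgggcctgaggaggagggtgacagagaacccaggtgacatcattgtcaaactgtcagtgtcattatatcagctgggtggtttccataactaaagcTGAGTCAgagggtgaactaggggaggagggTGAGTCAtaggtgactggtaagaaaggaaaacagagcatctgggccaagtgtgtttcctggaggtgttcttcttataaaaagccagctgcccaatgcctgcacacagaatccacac
Xirp2, chr2:67445752-67446001, plus strand: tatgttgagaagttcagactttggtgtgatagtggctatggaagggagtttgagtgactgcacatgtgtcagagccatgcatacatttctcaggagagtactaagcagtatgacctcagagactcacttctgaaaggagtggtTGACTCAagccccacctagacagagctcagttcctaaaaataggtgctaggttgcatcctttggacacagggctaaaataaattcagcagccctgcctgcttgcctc
Selenok, chr14:29968130-29968379, plus strand: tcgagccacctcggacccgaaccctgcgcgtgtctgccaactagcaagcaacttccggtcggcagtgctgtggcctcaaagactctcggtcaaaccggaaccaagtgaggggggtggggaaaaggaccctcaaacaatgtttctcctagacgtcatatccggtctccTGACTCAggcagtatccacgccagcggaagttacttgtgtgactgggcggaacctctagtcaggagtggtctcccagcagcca
Mmp3, chr9:7445572-7445821, plus strand: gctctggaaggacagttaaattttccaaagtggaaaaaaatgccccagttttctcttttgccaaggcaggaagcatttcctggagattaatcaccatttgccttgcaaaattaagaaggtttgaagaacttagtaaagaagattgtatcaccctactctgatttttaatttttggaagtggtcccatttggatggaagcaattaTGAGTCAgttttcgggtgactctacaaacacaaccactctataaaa
Sprr1a holds 2 matches in this window. The shares of the other motifs searched are given for all promoters and for genes with a called departure above 0 and below 0. The FoxO motif GTAAACA was in 2.22% of all promoters, 2.45% of those above 0 and 1.89% of those below 0, and the ERR motif TNAAGGTCA in 0.698%, 0.641% and 0.721%. The C/EBP-ATF composite TGATGNAAN was in 2.08%, 2.1% and 2.16% and the CArG box in 1.27%, 1.22% and 1.35%. The E-box CACGTG, which Myc and clock factors bind, was in 8.14% of all promoters, 10.1% of those above 0 and 6.67% of those below 0. A match describes the letters and is no sign of binding.

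Extracellular matrix genes and fibroblast markers, lists that share members, were higher in DKO hearts. Of 32 collagens and matrix structure genes 13 had a called departure above 0 and none below 0 (median 0.52), or 20 above 0 without DKO replicate 4. Col1a1, a chain of type I collagen, read 2.22 to 2.42 in control, 2.10 to 2.50 in AKT1 KO, 2.31 to 2.70 in AKT2 KO and 3.25 to 4.46 in DKO hearts (departure 1.28, SE 0.276). Col1a2 had a departure of 1.02, Col6a3 of 0.95 and Col16a1 of 0.93. Of 32 matricellular and TGF-beta genes 12 had a departure above 0 and none below 0 (median 0.55). Tgfb2 read 0.34 to 0.73 in the 12 other hearts and 2.71 to 3.85 in DKO hearts, a departure of 2.43 (SE 0.242). Tgfb3 had a departure of 0.94 (SE 0.0934) and Thbs4, a thrombospondin, of 1.41. This count ranged from 6 to 17 as single arrays were left out, and it moved by over 1.5 times without control replicate 1, 2 or 3, AKT1 KO replicate 1 or AKT2 KO replicate 3 or 4. Of 28 matrix proteases and inhibitors 14 had a departure above 0 and none below 0 (9 to 17 with single arrays left out, lowest without AKT2 KO replicate 2 or 1 of control replicates 1 and 2). They include Mmp3 (2.23), Mmp19 (0.96), Adamtsl2 (1.38) and the inhibitor gene Timp2 (0.48).

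Col1a1 and Col1a2 also count among the fibroblast markers, so the marker list is not a separate observation from the matrix lists. Of 15 fibroblast markers 11 had a called departure above 0, with a median of 0.65 and a median sum of single changes of 0.09. Their mean level was 2.70 to 2.82 in control, 2.64 to 2.88 in AKT1 KO, 2.79 to 2.95 in AKT2 KO and 3.47 to 3.95 in DKO hearts. Cardiomyocyte markers had 1 departure above 0 and 5 below 0 of 15. Their mean levels were 7.87 to 8.0, 7.69 to 8.02, 7.74 to 7.93 and 7.47 to 7.69 in the same order. The count of 5 ranged from 2 to 6 as single arrays were left out, and 10 of the 16 left-out arrays, in all 4 groups, moved it by over 1.5 times. Macrophage markers had 1 of 17 above 0 (0 to 4 with single arrays left out). Their mean levels were 0.78 to 0.95 in control and 1.04 to 1.57 in DKO hearts. That DKO range was overlapped by the AKT1 KO (0.71 to 1.12) and AKT2 KO hearts (0.64 to 1.36). Endothelial markers had 1 of 16 above 0, smooth muscle and pericyte markers 3 above and 2 below of 14, neutrophil markers 1 of 6 below, lymphocyte markers 0 of 9 (limma), and adipocyte markers 1 above and 1 below of 8. Atrial and conduction markers had 1 above and 1 below of 12, mesothelial markers 1 of 6 above, Schwann cell and neuron markers 2 above and 2 below of 12 and erythroid genes 2 of 10 above. The share of a change in cell composition in the matrix results was not tested.

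**Figure D3:**
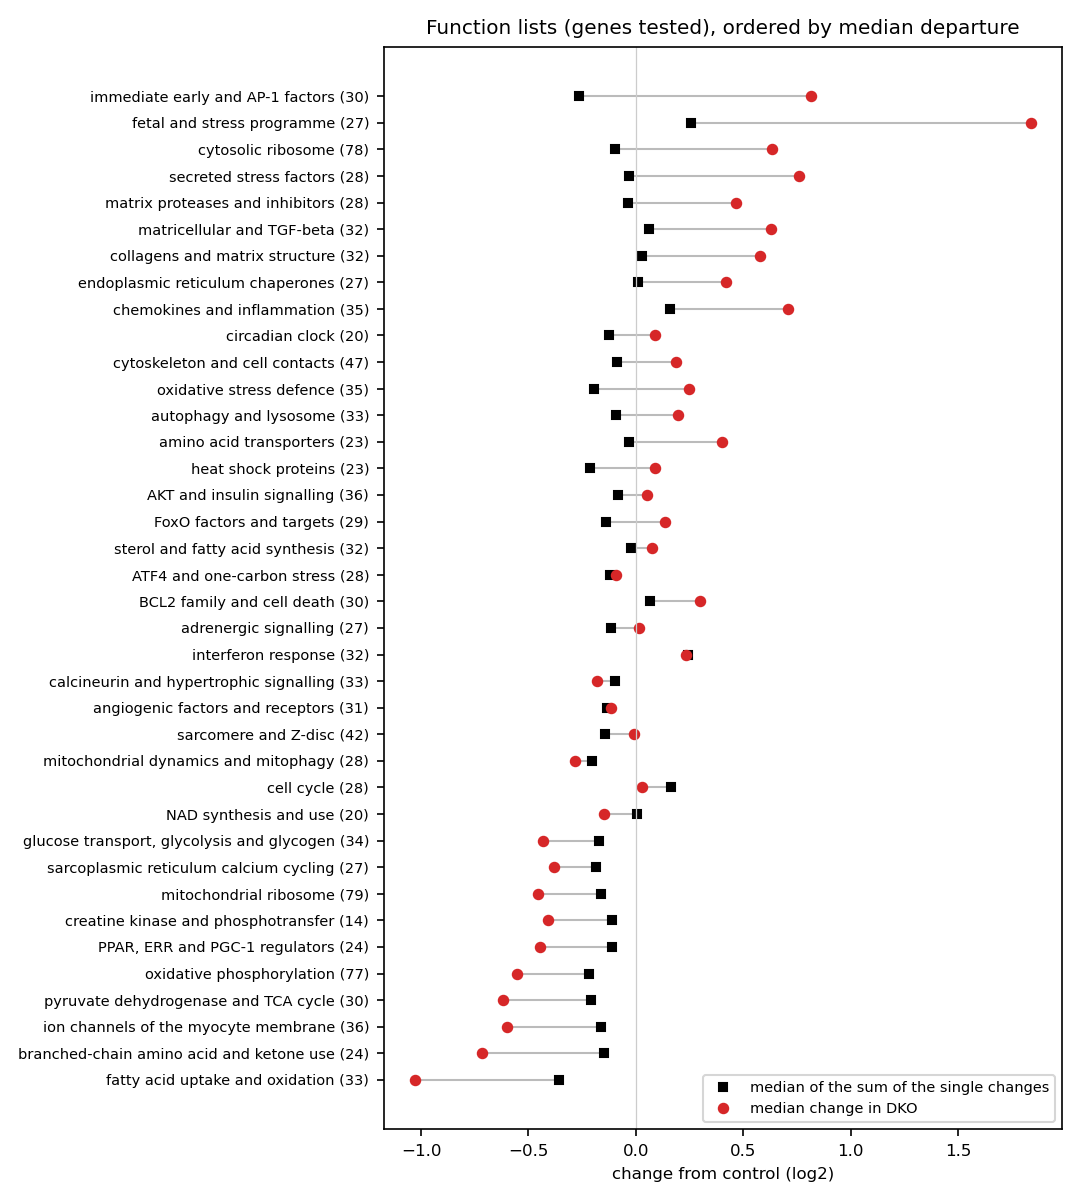
For each of the 38 function lists the medians over its tested members of the sum of the single changes and of the DKO change against control are shown in log2 units. The ribosome list moves to a DKO median of 0.63 from a sum of -0.10, and fatty acid oxidation to -1.03 from a sum of -0.36.

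The cytosolic ribosome had the largest share of called members among the 50 lists. Of 78 ribosomal protein genes 71 had a called departure above 0 and none below 0, 65 of them stand apart, and 74 were called higher in DKO hearts. The median departure was 0.71, the median DKO change 0.63 and the median sum of single changes -0.10. The mean level of the list was 6.55 to 6.65 in control, 6.28 to 6.59 in AKT1 KO and 6.57 to 6.67 in AKT2 KO hearts. It was 7.06 to 7.38 in DKO hearts, with no DKO heart in the range of another group. Rps12, of the small subunit, read 6.67, 6.57, 6.51 and 6.59 in control, 6.30, 6.53, 6.42 and 6.37 in AKT1 KO, 6.66, 6.59, 6.56 and 6.67 in AKT2 KO and 7.43, 7.40, 7.78 and 7.72 in DKO hearts. Its departure was 1.14 (SE 0.127, adjusted p = 3.04e-05). Rpl36a had a departure of 1.11, Rps23 of 0.87 and Rpl10 of 0.85. Ribosomal protein genes have many processed copies in the genome, which their probes may also read. With single arrays left out 70 to 75 genes were called above 0, and quantile normalization gave 73.

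Genes of protein folding and of the stress response to amino acid and secretory load also had departures above 0, in smaller shares. Of 27 endoplasmic reticulum chaperones 9 were above 0, or 16 without DKO replicate 3, and none below 0. They include P4hb, a protein disulfide isomerase (1.10), the unfolded protein response factor gene Xbp1 (0.98), Selenok (0.86) and Dnajb11 (0.60), all of which stand apart. Of 28 ATF4 and one-carbon stress genes 10 were above 0 and 2 below 0. Ppp1r15a, which restarts translation after stress, had a departure of 1.85 (1.63 without DKO replicate 3, which read 4.53 against 3.56 to 3.73 in the other DKO hearts). Gpt2, a mitochondrial alanine transaminase, had a departure of -1.39. Of 23 amino acid transporters 9 were above 0 and 2 below 0, with Slc38a9, a lysosomal arginine sensor, at 1.04, Slc6a9 at 0.65, Slc38a4 at 1.29 (0.47 by a second probe, not called) and the glutamine transporter gene Slc38a3 at -1.28.

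Among oxidative stress defence genes 10 of 35 had a departure above 0 and 2 below 0, and 3 of those above 0 stand apart. The median DKO change of the list was 0.25 and the median sum of its single changes -0.20. Gpx3, a secreted glutathione peroxidase, read 3.16 to 3.25 in control, 3.15 to 3.58 in AKT1 KO, 3.17 to 3.47 in AKT2 KO and 6.22 to 6.57 in DKO hearts. Its departure of 2.94 (SE 0.142) had the smallest adjusted p of the named genes, 2.42e-08. Gstm1 had a departure of 0.84. Nqo1, a quinone reductase, had one of 1.21, with an AKT1 KO value of -0.59 that missed the threshold (adjusted p = 0.0514) and a DKO change of 0.69. Of 23 heat shock proteins 8 were above 0 and 1 below 0, with Hsp90aa1 at 1.04, Hspb1 at 0.86 and the muscle gene Hspb3 at -1.23. Only 1 of those above 0 stands apart, and 5 of the 23 were called higher and 2 lower in DKO hearts. The median DKO change of this list was 0.09 and the median sum of its single changes -0.21. Hspa1l had a departure of 1.37 from an AKT1 KO fall of -0.82 (adjusted p = 0.0379) that was not seen in DKO hearts (0.37, adjusted p = 0.0922).

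Cell death genes of the BCL2 family list had 7 departures above 0 and 1 below 0 of 30, with 4 above 0 without AKT2 KO replicate 3 and 11 without DKO replicate 3. The share called was 26.7%, near the 26% of all genes. Tnfrsf12a, the TWEAK receptor, had a departure of 1.89, Bok of 1.17, Bax of 0.74 and the caspase gene Casp6 of -0.41. Sterol and fatty acid synthesis had 7 above 0 (12 without DKO replicate 3) and none below 0 of 32, a share of 21.9%. Its called members include the desaturase genes Scd1 at 1.53 and Fads2 at 0.90, Elovl1 at 0.72 and the citrate lyase gene Acly at 0.59.

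Genes of mitochondrial fuel oxidation fell in DKO hearts, and the median sums of their single changes lay on the same side of 0. Beside this fall, 11 of 15 cardiomyocyte markers were called lower (median DKO change -0.43) and 13 of 15 fibroblast markers higher in DKO hearts, and the part of cell composition in it was not tested. Of 33 genes of fatty acid uptake and oxidation 27 were called lower in DKO hearts and none higher, none was called in AKT1 KO or AKT2 KO hearts (limma), and the departure was called below 0 in 19 and above 0 in none. The median DKO change was -1.03, the median sum -0.36 and the median departure -0.67. The median sum depended on the setting, at -0.26 without AKT1 KO replicate 1 and -0.21 under quantile normalization. The mean level of the list was 5.77 to 5.93 in control and 5.40 to 5.79 in AKT1 KO hearts. It was 5.64 to 5.80 in AKT2 KO and 4.63 to 5.27 in DKO hearts. Cpt2, which releases acylcarnitines inside the mitochondrion, read 6.42, 6.21, 6.11 and 6.20 in control, 5.61, 6.06, 6.05 and 5.93 in AKT1 KO, 6.11, 5.89, 5.97 and 6.12 in AKT2 KO and 4.08, 4.17, 4.51 and 3.86 in DKO hearts. Its departure was -1.55 (SE 0.188, adjusted p = 6.42e-05) and its sum of single changes -0.54. Ech1 had a departure of -1.33 with a sum of -0.73, Acads -1.29 with -0.35 and Hadh -1.10 with -0.49, all enzymes of beta-oxidation.

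Oxidative phosphorylation held both genes beyond the sum and genes close to it. Of 77 subunit genes 71 were called lower in DKO hearts and 1 higher, yet the departure was called below 0 in 33, and 17 of the 72 called genes had a departure interval within the margin of 0.5. The median DKO change was -0.56, the median sum -0.22 and the median departure -0.36. Here the median sum was -0.14 without AKT1 KO replicate 1 and -0.08 under quantile normalization. Ndufs1, a core subunit of complex I, read 7.04 to 7.14 in control, 6.82 to 7.14 in AKT1 KO, 6.98 to 7.12 in AKT2 KO and 6.03 to 6.40 in DKO hearts (departure -0.78, SE 0.123). Ndufs8 had a departure of -0.83, Ndufa9 of -0.79 and the heart isoform gene Cox7a1 of complex IV -1.11. The count of 33 rose to 51 without AKT1 KO replicate 1, and other single arrays left out gave 24 as the lowest count. AKT1 KO replicate 1 had the lowest mean level of its group for this list, 7.23 against 7.51 to 7.63. Quantile normalization gave 53. Of 79 mitochondrial ribosome genes 27 had a departure below 0 and 3 above 0, and 11 of the 62 called in DKO hearts lay within the margin. Quantile normalization gave 54 below 0. Mrpl28 had a departure of -0.98, Mrpl37 of -0.60 and Mrpl41 of -0.58. The list also counts Lactb, which is not named as a ribosomal protein (-0.80, and -0.26 by a second probe, not called).

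The remaining lists of fuel use and its regulators held more departures below 0 than above 0, beside 10.1% below 0 and 15.9% above 0 over all genes. Of 30 genes of pyruvate dehydrogenase and the TCA cycle 14 had a departure below 0 and none above 0, with Sucla2, a subunit of succinyl-CoA synthetase, at -1.14, the pyruvate carrier gene Mpc2 at -0.88, Pdhx at -0.85 and citrate synthase, Cs, at -0.60. Of 24 genes of branched-chain amino acid and ketone use 12 were below 0 and none above 0, with Mmut at -1.01 (-0.45 by a second probe, not called), Pcca at -1.0, Acat1 at -0.64 and Acad8 at -0.51. Of 14 genes of creatine kinase and phosphotransfer 6 were below 0 and 1 above 0. Ckm, the muscle creatine kinase, read 6.26 to 6.37 in control, 5.65 to 6.37 in AKT1 KO, 6.25 to 6.43 in AKT2 KO and 3.77 to 4.78 in DKO hearts (departure -1.87, SE 0.26), and its mitochondrial partner Ckmt2 had a departure of -1.26. Ak1 and Ak3, adenylate kinases, had departures of -0.62 and -0.53. Of 24 PPAR, ERR and PGC-1 regulators 6 were below 0 and 2 above 0, with the retinoid receptor gene Rxrg at -1.29, Polrmt, the mitochondrial RNA polymerase, at -0.74, Lpin1 at -0.68 and Nrf1 at 0.43 (-0.02 by a second probe, not called).

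Glucose handling split by enzyme. Of 34 genes of glucose transport, glycolysis and glycogen 7 had a departure above 0 and 11 below 0. Slc2a1, the basal glucose transporter GLUT1, read 0.59 to 1.22 in the 12 other hearts and 2.67 to 2.93 in DKO hearts (departure 1.93, SE 0.155). The platelet-type phosphofructokinase gene Pfkp had a departure of 1.13. Pfkfb1, which sets the level of fructose 2,6-bisphosphate, read -0.10 to 0.98 in the 12 other hearts and -2.37 to -1.20 in DKO hearts (departure -2.47, SE 0.298), and Phkg1, the muscle phosphorylase kinase subunit, had one of -2.15. NAD synthesis and use had 3 of 20 above 0 and 4 below 0, against 15.9% and 10.1% of all genes, so its share above 0 was near that of all genes. Nmrk2, the muscle nicotinamide riboside kinase, read 0.26 to 0.91 in control, 0.11 to 1.45 in AKT1 KO, 1.06 to 2.44 in AKT2 KO and 3.43 to 5.71 in DKO hearts (departure 2.80, SE 0.601), whereas Naprt had a departure of -0.96, Nmnat1 of -0.75 and Sirt1 of 0.43.

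Genes of excitation and calcium handling had departures mainly below 0. Of 27 genes of sarcoplasmic reticulum calcium cycling 9 were below 0 and 1 above 0 (5 below 0 without AKT2 KO replicate 3). Hrc, which binds calcium in the reticulum, read 7.79 to 8.06 in control, 7.53 to 7.87 in AKT1 KO, 7.65 to 7.91 in AKT2 KO and 5.20 to 6.33 in DKO hearts (departure -1.62, SE 0.261). The brightest probe of Asph, a gene with several protein products, had a departure of -1.61 and a second probe -0.01, not called. Departures were called for triadin, Trdn (-0.79), and the calcium release channel gene Ryr2 (-0.72). Of 36 ion channels of the myocyte membrane 14 were below 0 and 2 above 0 (median -0.50). Kcnj5, a subunit of the acetylcholine-gated potassium channel, read 3.04 to 3.32 in the 12 other hearts and 1.79 to 2.16 in DKO hearts (departure -1.14, SE 0.123). Kcnh2 and Kcnq1, which carry the delayed rectifier potassium currents, had departures of -1.41 and -1.17, and Trpm4 one of -0.88 (-0.33 by a second probe, not called). Within slide 1 the median of this list was -0.24 and within slide 2 it was -0.41.

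In the contractile apparatus and cytoskeleton most called departures were above 0. Of 42 sarcomere and Z-disc genes 11 were above 0 and 4 below 0, with a median of 0.03. The lower count ranged from 1 to 5 as single arrays were left out, and it moved by over 1.5 times without AKT1 KO replicate 2, 3 or 4 or without any 1 of the control and AKT2 KO arrays. Fhl1, a LIM protein that responds to stretch, read 3.57 to 4.19 in the 12 other hearts and 6.19 to 7.90 in DKO hearts (departure 3.14, SE 0.357), while its relative Fhl2 had a departure of -0.97. Xirp2, of the intercalated disc, had one of 1.70 and desmin, Des, one of 1.26. Of 47 genes of cytoskeleton and cell contacts 15 were above 0 and 1 below 0, with the keratin gene Krt18 at 2.86, the tubulin gene Tubb2a at 1.14, talin, Tln1, at 0.93 and melusin, Itgb1bp2, at -1.34.

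In the lists that remain, as in the cell death and sterol lists, the share with a called departure lay near or below that of all genes (26%). Interferon response had 4 of 32 called higher in DKO hearts and none lower, with 1 departure above 0 and none below 0, or 5 above 0 without DKO replicate 3. Its median DKO change was 0.23 and its median departure 0.07, or 0.52 and 0.28 without DKO replicate 3. On that array the mean level of the list was 0.24, against 1.17 to 1.27 in the other DKO hearts. The median sum of its single changes was 0.24. Ifit2 was that member (0.91, adjusted p = 0.00995), and its AKT1 KO change was called as well (0.84, adjusted p = 0.0242). Of 35 chemokines and inflammation genes 20 were called higher in DKO hearts and 7 had a departure above 0, with Nfkb2 at 0.99, Cx3cl1 at 0.98, Nfkbia at 0.95 and Il6st at 0.63, and none below 0. Of 27 adrenergic signalling genes 3 were above 0 and 2 below 0, with the receptor kinase gene Grk5 at 1.52, Prkar1a at 1.42, Akap6 at 0.45 and Prkaca at -0.40. Of 33 calcineurin and hypertrophic signalling genes 3 were above 0 and 4 below 0, with Map2k6 at -1.11, Hdac7 at 0.50 and Mef2a at -0.39 (-0.18 by a second probe, not called) beside Rcan1.

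Of 31 angiogenic factors and receptors 2 were above 0 and 1 below 0. Apln, apelin, had a departure of -1.47 and Pdgfra of 0.65, while the call of Pdgfrb (0.42, adjusted p = 0.042) was lost in 12 of the 16 fits that left out 1 array. The medians of the adrenergic, calcineurin and angiogenic lists, 0.12, 0.04 and 0.03, turned to -0.02, -0.06 and -0.07 under quantile normalization. Of 28 cell cycle genes 3 were above 0 and 3 below 0, with Mcm6 at 1.26, the inhibitor gene Cdkn1a at 2.28 (a second probe gave -0.57, not called), Mcm2 at -1.13 and Cenpa at -0.70. Of 20 circadian clock genes 2 were above 0 and 3 below 0, with Rora at 0.54, Ciart at -1.75, Hlf at -0.98 and Per3 at -1.35.

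**Figure D4:**
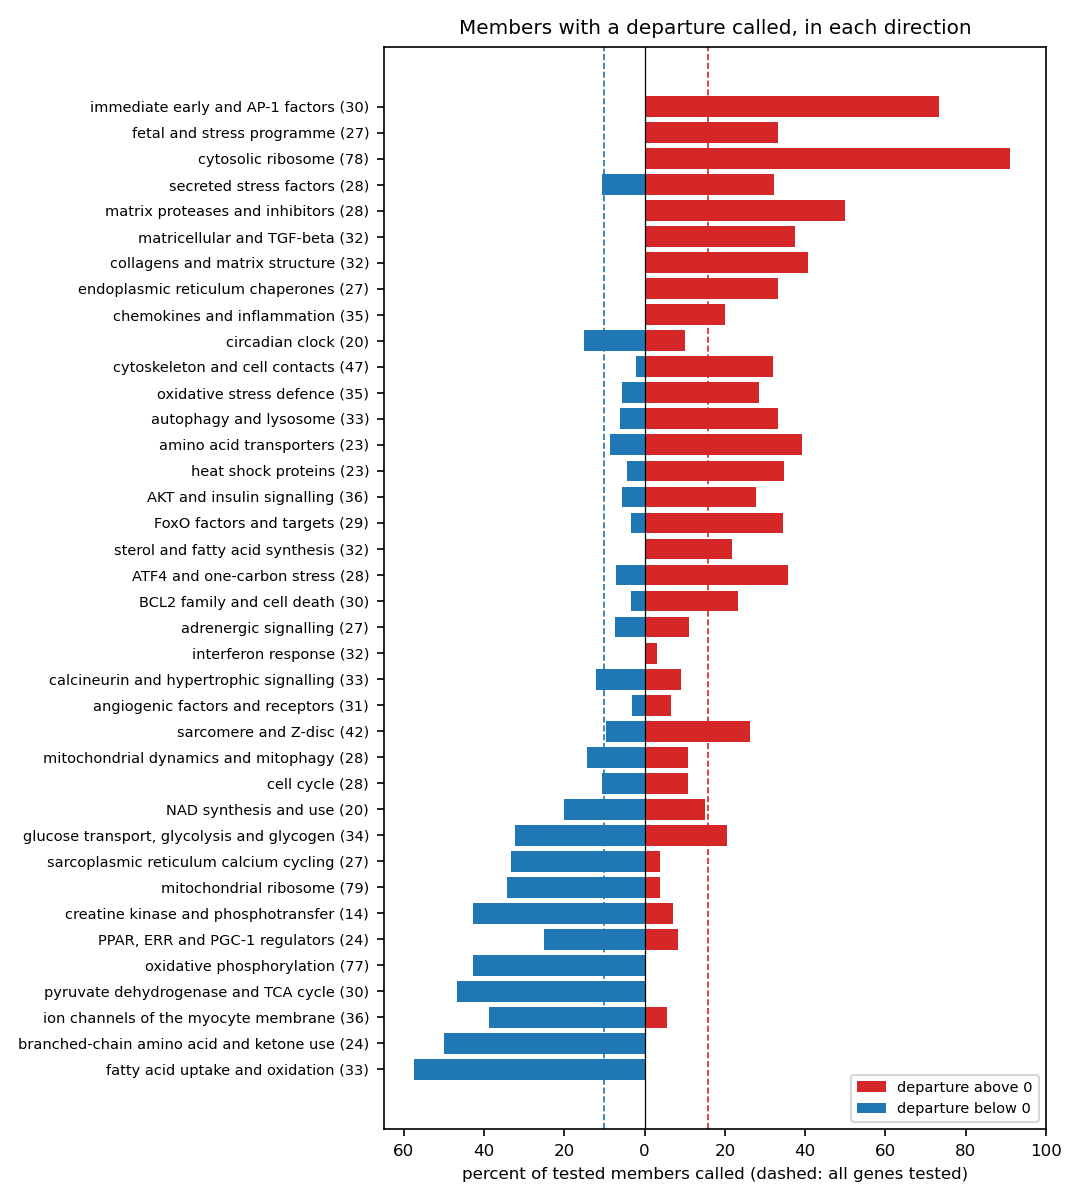
The share of each of the 38 function lists with a called departure above 0 and below 0 is drawn in percent of its tested members, beside the shares of all 13725 genes, 15.9% and 10.1%. The cytosolic ribosome has the largest share above 0 (71 of 78), and fatty acid uptake and oxidation a large share below 0 (19 of 33).

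Mamstr, a coactivator of the muscle factors MEF2 on chromosome 7, was the 1 gene that met the rule for following the sum. It read -1.87, -1.76, -1.89 and -1.96 in control, -1.79, -1.77, -1.75 and -2.05 in AKT1 KO, -2.98, -3.31, -3.22 and -2.96 in AKT2 KO and -3.04, -3.10, -3.15 and -3.16 in DKO hearts. AKT2 KO and DKO hearts overlapped, and both lay below the others. The departure was -0.03 (95% interval -0.31 to 0.26). Mamstr did not meet the rule under quantile normalization or with the authors' values. It was not tested when a probe had to be well above background on all arrays, since its only kept probe did not reach that on each array. Among function lists, mitochondrial dynamics and mitophagy had the largest share of genes within the margin, 16 of 28, against 3030 (22.1%) of all genes. Of these 28 genes 14 were called in DKO hearts, 6 of them within the margin and 6 with a called departure, so many within the margin had no called DKO change. The departure was called in 7 of the 28 (25%, against 26% of all genes). The median departure of the list was -0.01 beside a median sum of -0.20 and a median DKO change of -0.28. Under quantile normalization the median departure was -0.22. Its called members included Immt (-0.68), the fusion gene Opa1 (-0.65) and Bnip3l (0.44).

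The 18 genes called in AKT2 KO hearts, chosen by that call, all lie on chromosome 7, where 7.96% of tested genes lie. In DKO hearts 14 of the 18 were called with the same sign, Klk1b26 and Lrrc4b with the opposite sign, and Ftl1 and Sertad3 were not called. These and the following genes were picked after their values were seen. Kcnj14, a potassium channel gene, changed by 4.90 in AKT2 KO and by -1.59 in AKT1 KO hearts. Its DKO change was 3.03 beside a sum of 3.31 (departure -0.28, SE 0.374, adjusted p = 0.619). The interval of this departure did not lie within the margin, so Kcnj14 did not meet the rule for following the sum. Blvrb, biliverdin reductase B, had a sum of 0.68 and a DKO change of 0.60 and Alkbh6 a sum of -0.48 and a DKO change of -0.55. The kallikrein genes Klk1b22 and Klk1b3, close paralogs that probes may confuse, were well above background in all AKT2 KO and DKO hearts and in no control heart, and Zfp420 in 1 control heart, so their sums rest on background readings. The departure was called in 8 of the 18, each time against the single change. By contrast 8.38% of genes with a called departure and 8.01% of those that stand apart lie on chromosome 7.

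**Figure D5:**
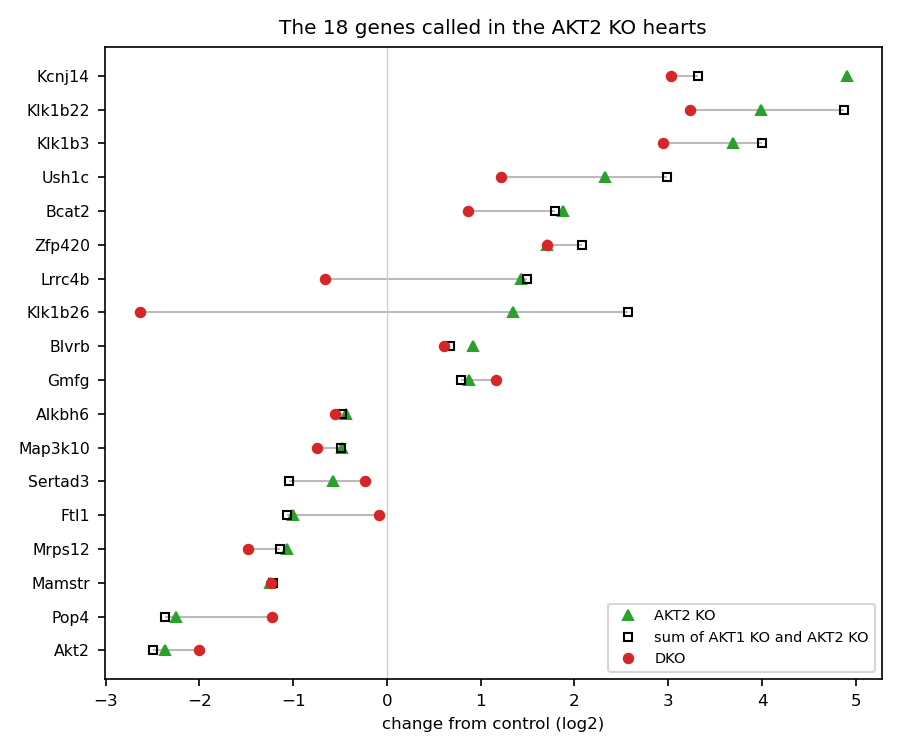
For the 18 genes called in AKT2 KO hearts the changes against control in AKT2 KO hearts (triangles) and DKO hearts (circles) and the sum of both single changes (squares) are shown in log2 units, with a line from the sum to the DKO change. Kcnj14, Blvrb and Mamstr have DKO values close to their sum, and of these only Mamstr met the rule for following the sum. The DKO values of Klk1b26 and Lrrc4b lie on the other side of 0. The values of Klk1b22, Klk1b3 and Zfp420 are drawn against control readings mostly or wholly below background.

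In 18 genes the sum of the single changes was called and the DKO change fell short of it or turned against it, and 9 of these lie on chromosome 7. Klk1b26, a kallikrein, read -3.46 to -2.67 in control, -2.42 to -1.43 in AKT1 KO and -1.90 to -1.50 in AKT2 KO hearts and was below background on all DKO arrays. Both single changes were called (1.22 and 1.34, adjusted p = 0.0242 and 0.0349), and AKT1 KO hearts were at least 4.79-fold and AKT2 KO hearts at least 5.23-fold higher than DKO hearts. Thrsp, which regulates fatty acid synthesis, read 2.46 to 2.62 in control, 3.35 to 4.04 in AKT1 KO, 2.56 to 3.45 in AKT2 KO and 1.65 to 2.42 in DKO hearts. Its AKT1 KO change of 1.26 (adjusted p = 0.00564) stood against a DKO change of -0.55 (adjusted p = 0.0341), a departure of -2.38. Gsta2, a glutathione transferase, read -0.11 to 0.04 in control, -3.37 to -1.93 in AKT1 KO, -0.31 to -0.05 in AKT2 KO and -0.27 to 0.87 in DKO hearts. The fall in AKT1 KO hearts (-2.61, adjusted p = 0.00022) had no counterpart in DKO hearts, and the departure was 2.97.

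Sbk3, a kinase gene, and Aldh16a1 had the same form, with AKT1 KO changes of -1.82 and -1.29 and departures of 2.16 and 1.74. Eprn, a noncoding RNA gene, changed by 2.02 in AKT1 KO hearts and by 0.42 in DKO hearts (adjusted p = 0.191). Ush1c had an AKT2 KO change of 2.33 and a DKO change of 1.22. Ptprn2, a phosphatase-like vesicle protein of chromosome 12, was below background in control and AKT2 KO hearts, read 1.55, 1.90, 1.89 and 1.90 in AKT1 KO and 0.25, 0.44, -0.31 and 0.41 in DKO hearts, and was at least 18.4-fold higher in DKO than in control hearts. Its AKT1 KO hearts were all above its DKO hearts, and with values below background raised the departure was -1.38, still called. Among the other 10 genes AA465934 had the largest departure, -6.83, with an AKT1 KO change of 6.04 and a DKO change of -0.76. The branched-chain aminotransferase gene Bcat2 had an AKT2 KO change of 1.88 and a DKO change of 0.87.

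Of the 109 genes called in AKT1 KO hearts, chosen by that call, 47 were called with the same sign in DKO hearts, 18 with the opposite sign and 44 not at all, and the departure was called in 74, in 61 of them against the single change. Mybphl, a relative of myosin-binding protein H, was well above background in AKT1 KO hearts only, at least 3.23-fold over control and at least 3.54-fold over DKO hearts. Its departure was -1.59 with values below background raised, and was no longer called. Cyp2b9 and Cyp2b10, paralogs of the cytochrome P450 family that probes may confuse, had the highest levels in AKT1 KO hearts. Neither AKT1 KO change was called (2.24 and 1.73, adjusted p = 0.139 and 0.362), and with values below background raised the departure of Cyp2b9 was -1.62, no longer called, and that of Cyp2b10 -2.73, still called.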

How the data were processed

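Total RNA (100 ng) of each of 16 mouse heart apices was measured on 1-colour Agilent arrays. Per the file headers, the deposited intensity values were made with Feature Extraction 12.0.3.1, which subtracted the background. The authors' deposited table of log2 values, quantile-normalized and centred on probe medians as its fit to the scanner values showed (column medians -0.0245 to 0.0134), served as an alternative. Log2 intensities minus the array's 75th percentile (492.1 to 809.4 before scaling) were used. Between 24400 and 30565 probes per array lay well above background, and the number of arrays limits the precision. A probe was kept when well above background on all 4 arrays of a group, and the brightest probe stood for a gene, which left 13725 genes (4558 with several kept probes) of 22911 symbols. Flagged outlier spots removed 118 probes. Control spots and unnamed probes entered no gene test.

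Groups came from the sample titles, with 0 sample columns unused. 1 mean per group was fitted over all 16 arrays in limma 3.58.1 (R 4.3.3, 12 residual and 2.54 prior degrees of freedom), p-values were adjusted over all genes by Benjamini-Hochberg, and scripts were tested on simulated data. The 50 lists (38 functions, 12 cell types) are described by counts and medians, with no set test. Members and lists were chosen with earlier results of these data known. Named genes were Akt1 and Akt2, the 12 largest departures each way, the 6 highest and 6 lowest DKO changes among genes that stand apart or follow the sum, the 8 largest departures among genes short of the sum, and up to 4 called members of each function list with the smallest adjusted p. Only genes with a proper symbol were eligible, and 2 genes that met the rule are not reported here. Alternatives covered background correction, scaling, filter, probes, weights, blocks, slides, margins, additivity on linear values and each array left out. Replicate numbers were not taken to pair the samples. Deviations of arrays with the same number correlated at -0.35 to 0.39 (median 0.14), and those with different numbers at -0.37 to 0.31 (median -0.08).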

Additional observations from a re-analysis of the deposited data

Results flagged for a closer look

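Among 676 groups of 4 hearts tested for the named genes, 48 held 1 heart whose gap to the others passed Dixon's 95% critical value for its size, where chance gives about 1 in 20 groups, or 33.8. They fell into 7 control, 18 AKT1 KO, 13 AKT2 KO and 10 DKO groups, 8 of the last in replicate 3. Control replicate 1 stood out in the level of Bnip3 (5.9). Control replicate 2 stood out in the level of Cdkn1a (0.14). Control replicate 3 stood out in the level of Trdn (5.06), Prkaca (5.28), Timp2 (5.05) and Nfkbia (3.22). Control replicate 4 stood out in the level of Mmp19 (-2.01). AKT1 KO replicate 1 stood out in the level of Akt2 (4.51), Mrgprh (-2.66), Ptprn2 (1.55), Pik3cb (-0.74), Ckm (5.65), Ak3 (4.54), Ak1 (6.8), Mrpl28 (2.98), Kcnh2 (0.41), P4hb (2.64), Selenok (4.3), Casp6 (0.84), Gabarap (5), Tln1 (4.55) and Ciart (-3.23). AKT1 KO replicate 2 stood out in the level of Trpm4 (-0.03) and Cenpa (1.3). AKT1 KO replicate 4 stood out in the level of Mamstr (-2.05). AKT2 KO replicate 1 stood out in the level of Esr1 (5.15), Adcy1 (-1.85), Hadh (5.95) and Kcnq1 (2.73). AKT2 KO replicate 2 stood out in the level of Gdf15 (-0.27), Acad8 (2.43) and Mrpl28 (3.23). AKT2 KO replicate 3 stood out in the level of Igf1r (0.75), Kcnj5 (3.2), Bok (-1.97) and Tubb2a (3.61). AKT2 KO replicate 4 stood out in the level of Nrip3 (-5.48) and Rpl36a (5.87). DKO replicate 1 stood out in the level of Timp2 (5.58). DKO replicate 3 stood out in the level of Igsf1 (-1.63), Rxrg (2.32), Des (7.04), Adamtsl2 (0.65), Ppp1r15a (4.53), Gpt2 (-1.24), Bok (-0.38) and Mcm6 (2.38). DKO replicate 4 stood out in the level of Crybb1 (-5.3). 

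The effect of targeting Akt2 differed with and without targeting of Akt1, by the test of the departure, in 3566 genes. Of 7056 tested probes that carry no gene symbol and entered no comparison above, 1183 (16.8%) had a called departure, 686 above 0 and 497 below 0, against 26% of the genes with a symbol.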

How the results depend on the processing

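The departure was called in 3566 genes, and all alternatives but 3 gave a count within 1.5 times of it: array quality weights gave 6155 genes, the arrays of slide 2 alone 172, and a threshold of 0.01 gave 1871. With single arrays left out the count ranged from 2886 to 4810, the latter without DKO replicate 3. The share of called departures above 0 was 61% and became 53.7% under quantile normalization and 65.3% with normexp. The genes that stand apart numbered 2497, and 1494 and 127 within slides 1 and 2. The single gene that followed the sum became 0 under quantile normalization, with the authors' values, with probes above background on all arrays and within slide 2, 4 within slide 1, 5 with array weights, 10 with a margin of 0.75, and 1 to 3 with single arrays left out. The 18 genes short of the sum became 4 with no filter, 210 with array weights, 69 with 1 variance weight per group, 5 and 0 within slides 1 and 2, and 3 to 37 with single arrays left out. Sepsecs turned to -0.11 with no filter and to -0.047 within slide 1, and ranged from -0.13 to 3.50 with single arrays left out. Of the 169 named genes 142 kept their direction and side of the threshold within slide 1 and 35 within slide 2. The fit with a replicate block, though the numbers were not taken to pair the samples, gave 3493 called departures. It gave 2481 genes apart, 13 short and 1 following, and changed no call among the named genes.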
